A study of Mus musculus with 12 samples.

Results

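Primed epiblast genes mark the pluripotent cells of the embryo shortly before gastrulation, and 7 of them were followed here in mouse germ cells: Fgf5, Otx2, Pou3f1, Sox3, Sfrp2, Cldn6 and Zic2. They were picked by name from the 18195 genes that the array annotation could identify, by a rule that uses no measured value, though with earlier results of these data known. Each was read from probe sets whose annotation names that gene and no other, taking, where there were several, the one with the greatest average signal. All 7 had such a probe set, and 6 of them were among the 13436 genes bright enough to be tested. Zic2 was not tested.

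As embryonic stem cells leave the naive state, the primed epiblast switches on the secreted growth factor FGF5, the transcription factors OTX2, POU3F1 (also called OCT6), SOX3 and ZIC2, the WNT-binding secreted protein SFRP2 and the tight junction protein claudin 6. Primordial germ cells (PGCs), the precursors of oocytes and sperm, arise from this epiblast, and PGC-like cells (PGCLCs) are induced in culture from stem cells that pass through a similar state. OTX2 is known to hold back germ cell entry in the mouse, and POU3F1 and SOX3 also act in the early nervous system.

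The study compared PGCLCs with PGCs on 12 Affymetrix arrays, 2 per group. The d3 and d6 female groups are female PGCLCs at day 3 and day 6 of culture. The d3ag6 group is female day 3 PGCLCs kept for 6 further days in aggregates with somatic cells from the gonads of E12.5 female embryos, and d6 male is male PGCLCs at day 6. These 4 groups were of C57BL/6 background and carried the Blimp1-mVenus and stella-ECFP reporter transgenes. The E12.5 group is PGCs of female embryos and the E9.5 group is PGCs of embryos of unknown sex, both of a mixed C57BL/6 and BDF1 background with the stella-EGFP reporter. All cells were sorted on reporter fluorescence, and the cDNA of each array was amplified from 5 ng of RNA, equivalent to 500 cells. The labels call the 2 arrays of a group biological replicates, and they do not say how many cultures or embryos each pooled.

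Levels are log2 signals after quantile normalization. A change is the difference of 2 group means on this scale, the tested group minus the group it is set against, from limma with its standard error (SE). Genes with an adjusted p under 0.05 (Benjamini-Hochberg over all genes tested) are referred to as called. The median of all values, 4.81, served as a mark for dim signals, because no detection calls were used here. The number of arrays limits the precision of every value. In these bulk samples, fewer cells of a type and less RNA per cell cannot be told apart.

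Germ cell identity was checked first. Of 9 germ cell markers, 8 were on the array, and all 8 lay above the median on both arrays of each group, except in E9.5, where 7 did and Dazl (5.92 and 3.81) did not on 1 array. The E9.5 arrays stood apart in markers of other cells. The summed linear signal of 11 mesenchyme markers was 1410 to 3280 on the E9.5 arrays and 293 to 1100 on the other 10. That of 9 blood and macrophage markers was 4550 to 10100 on the E9.5 arrays and 421 to 1540 elsewhere. Of these markers, the embryonic globin genes Hba-x (12.73 and 11.73) and Hbb-bh1 (11.52 and 9.64) were high on the E9.5 arrays. The macrophage and leukocyte markers Ptprc, Cd68, Csf1r, Lyz2, Tyrobp and Fcer1g each had a higher mean in d3ag6 than in E9.5. The summed signal of 11 neural markers was 1890 on E9.5 replicate 1 and 610 on replicate 2, against 454 to 975 elsewhere. None of the mesenchyme, blood or neural markers was at 0 on any array.

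**Figure D1:**
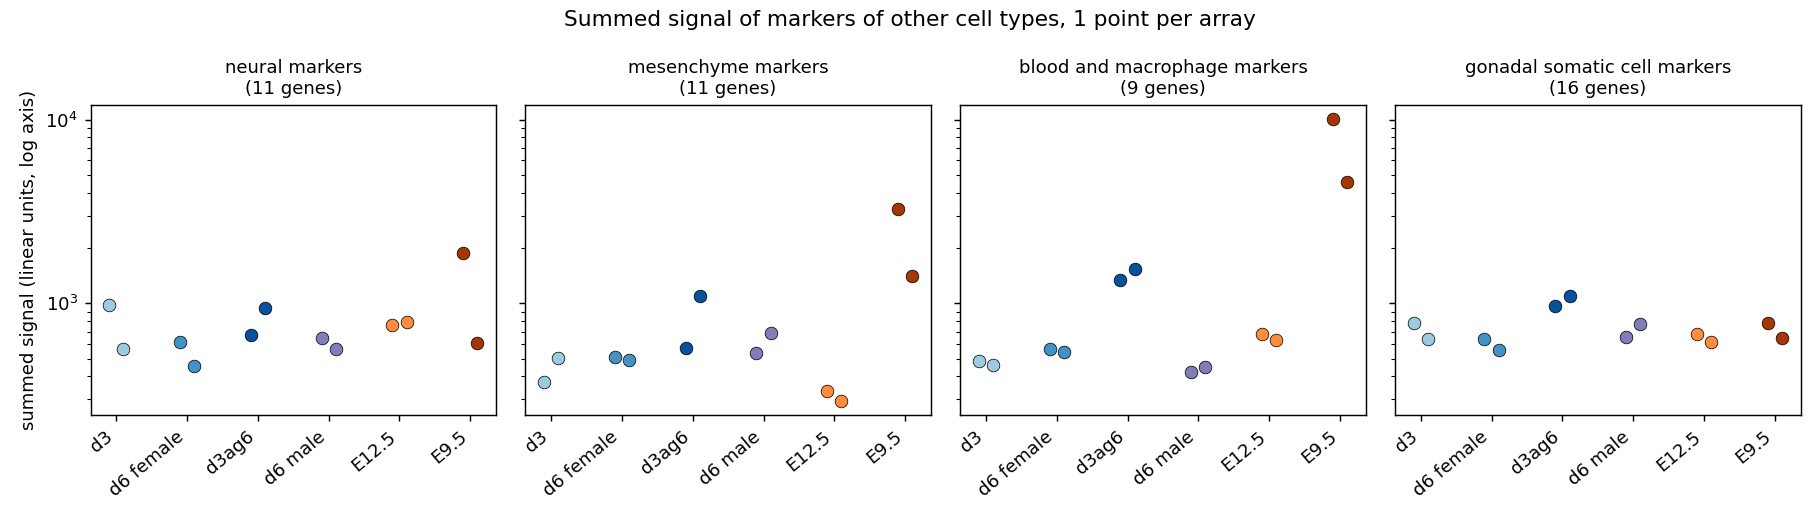
Summed signal (linear units on a log axis) of markers of 4 other cell types, 1 point per array, by group. The E9.5 points lie above all others for mesenchyme markers (1410 to 3280) and for blood and macrophage markers (4550 to 10100), while the d3ag6 points lie highest for gonadal somatic cell markers (967 to 1090). The blood and macrophage sum includes the embryonic globin genes Hba-x and Hbb-bh1, which were high in E9.5.

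Array codes split the groups too. The E9.5 and d6 male arrays had the code EA0831 (replicate 1) or EA0842 (replicate 2), and the arrays of the remaining 4 groups had EA1013. Code and group cannot be told apart in E12.5 minus E9.5 or when d6 female is set against E9.5 or d6 male. In d6 male minus E9.5 each code held 1 array of both groups. Strain background and sorting reporter, however, differed between all PGCLC and all PGC groups. Neither can be told apart from the cell source when d6 female or d6 male is set against E9.5, or d3ag6 against E12.5.

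On GRCm38.p6, Fgf5 is at chr5:98254184-98277033, Sfrp2 at chr3:83765750-83774314 and Sox3 at chrX:60891366-60893430. Pou3f1 is at chr4:124657646-124660655, Otx2 at chr14:48656781-48667644, Zic2 at chr14:122475384-122480328 and Cldn6 at chr17:23679348-23682446.

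The promoters of 3 members that were lower in d6 female than in d3 PGCLCs are shown for what they share and how they differ. Sox3 was also lower, but no promoter window was available for it, nor for Pou3f1 and Zic2. Each window runs from 250 bases before to 50 bases after a transcript start, 5′ to 3′ on the gene's strand, from RefSeq on GRCm38.p6. Capitals mark matches on either strand to 5 motifs: the octamer ATGCAAAT bound by POU factors, TAATCC bound by OTX2, GCCNNNGGC of TFAP2 factors, the PRDM1 core AGTGAAAG, and CTTTGAT of TCF and LEF factors. The windows lie at chr3:83766071-83766370 (plus strand) for Sfrp2, chr5:98253934-98254233 (plus strand) for Fgf5 and chr17:23679115-23679414 (plus strand) for Cldn6.
Sfrp2: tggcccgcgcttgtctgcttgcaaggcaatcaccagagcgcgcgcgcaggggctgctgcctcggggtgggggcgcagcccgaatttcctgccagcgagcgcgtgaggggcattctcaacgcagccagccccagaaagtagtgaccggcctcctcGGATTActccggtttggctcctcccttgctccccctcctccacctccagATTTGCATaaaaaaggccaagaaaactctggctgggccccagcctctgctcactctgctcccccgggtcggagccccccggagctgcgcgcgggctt
Fgf5: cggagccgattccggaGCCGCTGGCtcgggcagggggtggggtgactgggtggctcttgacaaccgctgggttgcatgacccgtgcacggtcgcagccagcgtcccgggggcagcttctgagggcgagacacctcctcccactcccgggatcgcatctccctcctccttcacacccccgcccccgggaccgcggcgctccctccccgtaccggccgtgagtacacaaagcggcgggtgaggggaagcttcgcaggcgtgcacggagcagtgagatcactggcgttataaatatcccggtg
Cldn6: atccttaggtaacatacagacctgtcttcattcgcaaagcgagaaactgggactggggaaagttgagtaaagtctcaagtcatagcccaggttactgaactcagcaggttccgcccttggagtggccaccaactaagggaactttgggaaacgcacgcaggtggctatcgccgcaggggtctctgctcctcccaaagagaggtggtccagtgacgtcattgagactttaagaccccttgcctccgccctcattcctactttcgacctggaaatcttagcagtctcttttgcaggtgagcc
The Sfrp2 window holds the octamer as ATTTGCAT from position -47, counted from the start site, and the OTX2 motif as GGATTA from position -96, neither overlapping the other. The octamer is in 1.74% of all 32851 promoter windows of the same length, and TAATCC is in 7.06%. The Fgf5 window holds 1 TFAP2 match, GCCGCTGGC, from position -234, a motif found in 16.6% of windows. No capital stands in the Cldn6 window. The PRDM1 core is in 1.32% of all windows and the TCF and LEF motif in 3.73%, and neither is in the windows shown. CpG dinucleotides number 22 in the Sfrp2 window, 29 in that of Fgf5 and 10 in that of Cldn6, against a median of 7 over all windows. Of the 4 windows of Otx2, 1 holds the OTX2 motif, from position -211. A match is a run of letters and not a bound site.

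Over the 6 groups, the level of 4 of the 6 tested members varied by the limma F test: Fgf5, Sox3, Sfrp2 and Cldn6. The same test called 37% of all genes tested. Pou3f1 (adjusted p = 0.053) and Otx2 (adjusted p = 0.22) did not pass. Pou3f1, Sox3 and Cldn6 were above the median of all values on each of the 12 arrays, Sfrp2 on 8, Fgf5 on 4, Otx2 on 2 and Zic2 on none.

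**Figure D2:**
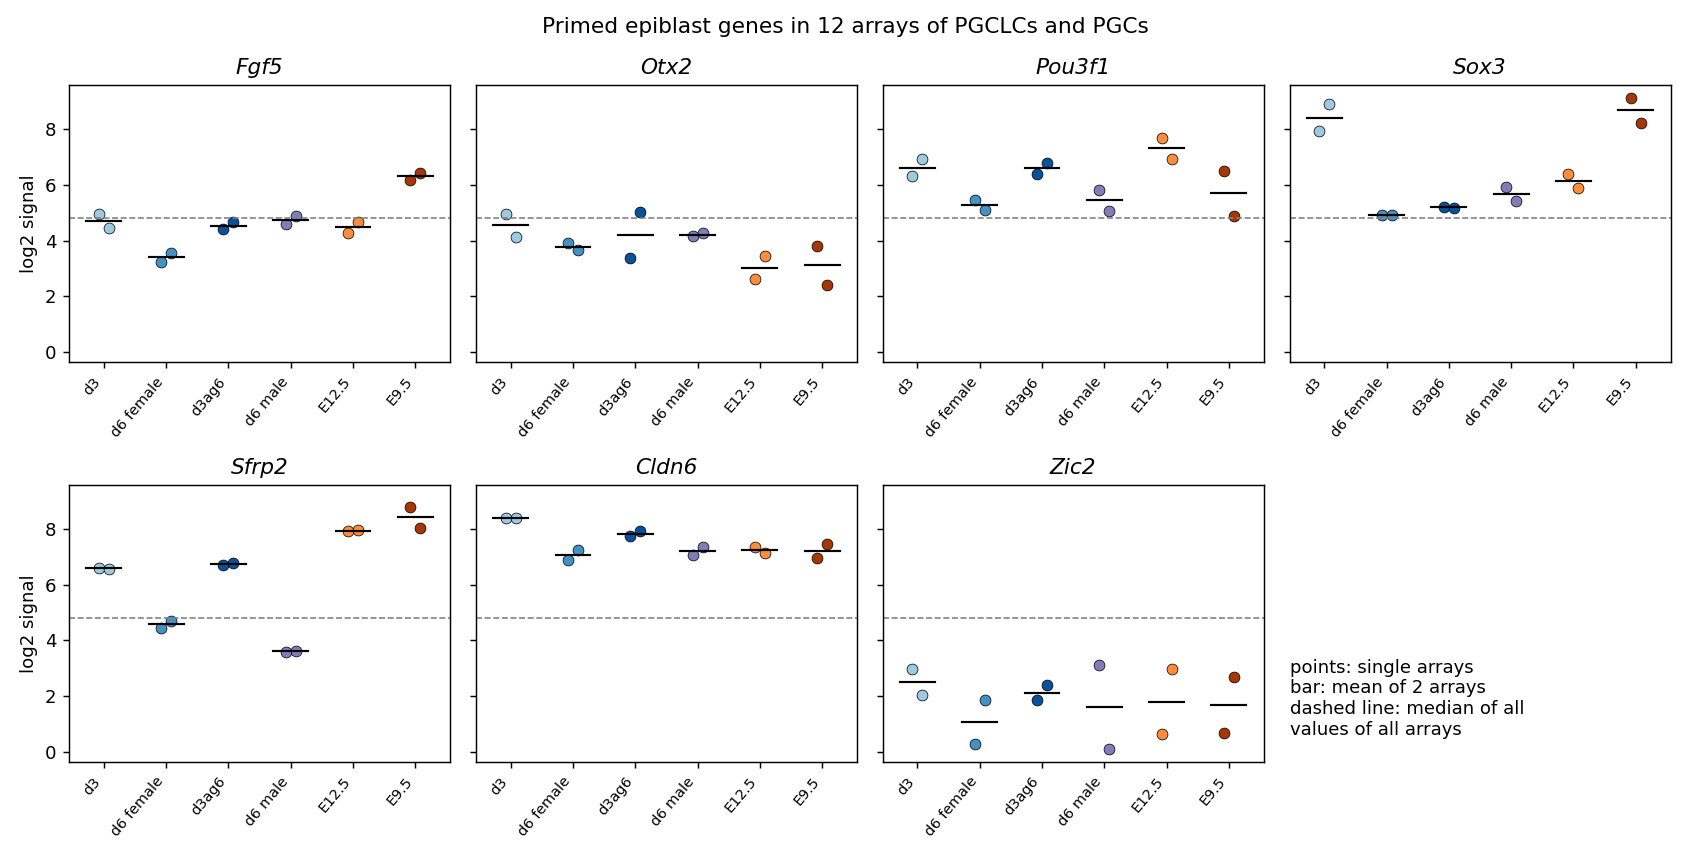
Log2 signal of the 7 primed epiblast genes on each array (points) with the mean of each group (bars) and the median of all values (dashed line at 4.81). Sox3 is high in d3 and E9.5, Sfrp2 is low in both day 6 cultures, Fgf5 is highest in E9.5, and Zic2 stays under the line on every array.

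Fgf5, the secreted ligand of the set, acts through FGF receptors and is a standard marker of the early postimplantation epiblast. Its level was 4.95 and 4.46 in d3, 3.25 and 3.56 in d6 female, 4.41 and 4.68 in d3ag6, 4.60 and 4.88 in d6 male, 4.28 and 4.69 in E12.5, and 6.19 and 6.43 in E9.5. Both E9.5 arrays lay above all others and both d6 female arrays below all others. The d6 male, d3, d3ag6 and E12.5 groups overlapped, each with its neighbour in the order of means. The level was 2.90 lower in d6 female than in E9.5 (SE 0.24, adjusted p = 0.000253), 1.57 lower in d6 male than in E9.5 (SE 0.24, adjusted p = 0.00387) and 1.83 lower in E12.5 than in E9.5 (SE 0.24, adjusted p = 0.0011). The means of d6 female, d6 male and E12.5 lay under the median mark. With values under the mark raised to it, the change against E9.5 was -1.5 in d6 female, -1.46 in d6 male and -1.5 in E12.5, all still called. The difference between d6 female and d3 (-1.29, SE 0.24, adjusted p = 0.0198) passed the test, but both means lay under the median mark, and with values under it raised to it the change was -0.07 (adjusted p = 0.878). The call was also lost without d3 replicate 1 (adjusted p = 0.117) or without either d6 female array (adjusted p of 0.153 and 0.0611).

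A second probe set of Fgf5 did not follow the first. Its correlation with the first over the 12 arrays was -0.13. On it the level was 4.99 and 5.20 in E12.5, against 3.93 and 4.61 in E9.5, and 4.56 and 4.48 in d6 female. The change on it was 0.82 for E12.5 minus E9.5 (adjusted p = 0.0956) and 0.25 for d6 female minus E9.5 (adjusted p = 0.664), and -0.52 for d6 male minus E9.5 (adjusted p = 0.406). Each statement on Fgf5 therefore holds for 1 of its 2 probe sets. On the second, 3 of 12 arrays passed the median mark.

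Sfrp2 encodes a secreted protein with a frizzled-like domain that binds WNT ligands. Its level was 6.61 and 6.57 in d3, 4.46 and 4.70 in d6 female, 6.71 and 6.77 in d3ag6, 3.60 and 3.63 in d6 male, 7.92 and 7.98 in E12.5, and 8.81 and 8.05 in E9.5. No 2 neighbouring groups overlapped in the order E9.5, E12.5, d3ag6, d3, d6 female and d6 male, though d3ag6 minus d3 (0.15, SE 0.23, adjusted p = 0.764) and E12.5 minus E9.5 (-0.48, SE 0.23, adjusted p = 0.161) did not pass the test. Both day 6 cultures lay under the median mark, so their order cannot be read. The E12.5 minus E9.5 change depended on 1 array: without E9.5 replicate 2 it was -0.86 (adjusted p = 0.0145), and without replicate 1 it was -0.10 (adjusted p = 0.74).

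Sfrp2 fell to 4.58 ± 0.17 in d6 female, against 6.59 ± 0.03 in d3 (log2 change -2.01, SE 0.23, adjusted p = 0.00299). In the aggregate it was 6.74 ± 0.04, above d6 female (log2 change 2.16, SE 0.23, adjusted p = 0.00165). With values under the mark raised to it, these changes were -1.78 and 1.93, both still called. It remained 2.31-fold lower in d3ag6 than in E12.5 PGCs, at 7.95 ± 0.04 (SD, n = 2 in each group; log2 change -1.21, SE 0.23, adjusted p = 0.0129). This last call was lost when any 1 of the 4 arrays was left out (adjusted p from 0.0727 to 0.089). Against E9.5, Sfrp2 was lower in d6 female (log2 change -3.85, SE 0.23, adjusted p = 7.87e-05) and in d6 male (log2 change -4.81, SE 0.23, adjusted p = 3.99e-05). With values under the mark raised to it, both changes were -3.62, still called.

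The family relative Sfrp1, also a secreted WNT modulator, was measured beside it. Its level was 6.98 and 7.20 in d6 female, against 6.25 and 7.47 in d3, where the groups overlapped (change 0.23, SE 0.43, adjusted p = 0.863). It was lower in d6 female than in E9.5 (9.52 and 8.55), with a change of -1.94 (SE 0.43, adjusted p = 0.0183). In d6 male (9.11 and 8.56) the change against E9.5 was -0.20 (SE 0.43, adjusted p = 0.85).

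Sox3, an X-linked SOXB1 transcription factor of the epiblast and neural progenitors, was the member with the largest change in culture. Its level was 7.94 and 8.93 in d3, 4.92 and 4.93 in d6 female, 5.23 and 5.16 in d3ag6, 5.92 and 5.42 in d6 male, 6.39 and 5.89 in E12.5, and 9.15 and 8.22 in E9.5. The d3 and E9.5 arrays were high and overlapped each other, and the remaining 8 arrays all lay lower. Sox3 fell 11.4-fold in d6 female against d3 (log2 change -3.51, SE 0.38, adjusted p = 0.00269) and 9.42-fold in d3ag6 against d3 (log2 change -3.23, SE 0.38, adjusted p = 0.00125). The d3ag6 and d6 female groups differed by 0.27 (SE 0.38, adjusted p = 0.738). In the embryo the E12.5 level was 5.85-fold under that of E9.5 (log2 change -2.55, SE 0.38, adjusted p = 0.0021).

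Both day 6 cultures were lower in Sox3 than E9.5 PGCs, by 3.76 on the log2 scale in d6 female (SE 0.38, adjusted p = 0.000644) and by 3.02 in d6 male (SE 0.38, adjusted p = 0.00177). A second Sox3 probe set had no array above the median mark (2.99 to 4.50), so it gives no second reading of these changes. Sox2, the close relative of Sox3 that works in pluripotent cells, spanned only 12.03 to 12.67 over all arrays. It fell by 0.55 in d3ag6 against d3 (SE 0.14, adjusted p = 0.0401), and the change in d6 female against d3 was -0.21 (SE 0.14, adjusted p = 0.54). Sox1, the third SOXB1 gene and a marker of neural progenitors, was 6.01 and 5.10 in E9.5 and at most 3.45 on the other arrays.

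Pou3f1, a POU factor of the primed epiblast and of glial and neural precursors, was 6.31 and 6.94 in d3, 5.47 and 5.10 in d6 female, 6.41 and 6.81 in d3ag6, 5.84 and 5.07 in d6 male, 7.69 and 6.95 in E12.5, and 6.52 and 4.88 in E9.5. The d3 and d3ag6 arrays overlapped and lay above both day 6 cultures, and the E12.5 arrays were the highest. On this probe set none of its changes passed the test, among them d6 female minus d3 (-1.34, SE 0.52, adjusted p = 0.235), d3ag6 minus d6 female (1.32, SE 0.52, adjusted p = 0.17) and E12.5 minus E9.5 (1.62, SE 0.52, adjusted p = 0.0508). The last value rested on E9.5 replicate 2, at 4.88: without replicate 1 the change was 2.44 (adjusted p = 0.00978), and without replicate 2 it was 0.81 (adjusted p = 0.243). It also passed with a replicate block (adjusted p = 0.0434) and with a trended, robust eBayes (adjusted p = 0.0418).

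The second Pou3f1 probe set ran the other way, with a correlation of -0.58 with the first over the 12 arrays. It read 3.62 and 4.18 in E12.5, against 6.03 and 5.67 in E9.5, a change of -1.95 (adjusted p = 0.00846). The direction of Pou3f1 between E12.5 and E9.5 is therefore not settled by these arrays.

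**Figure D3:**
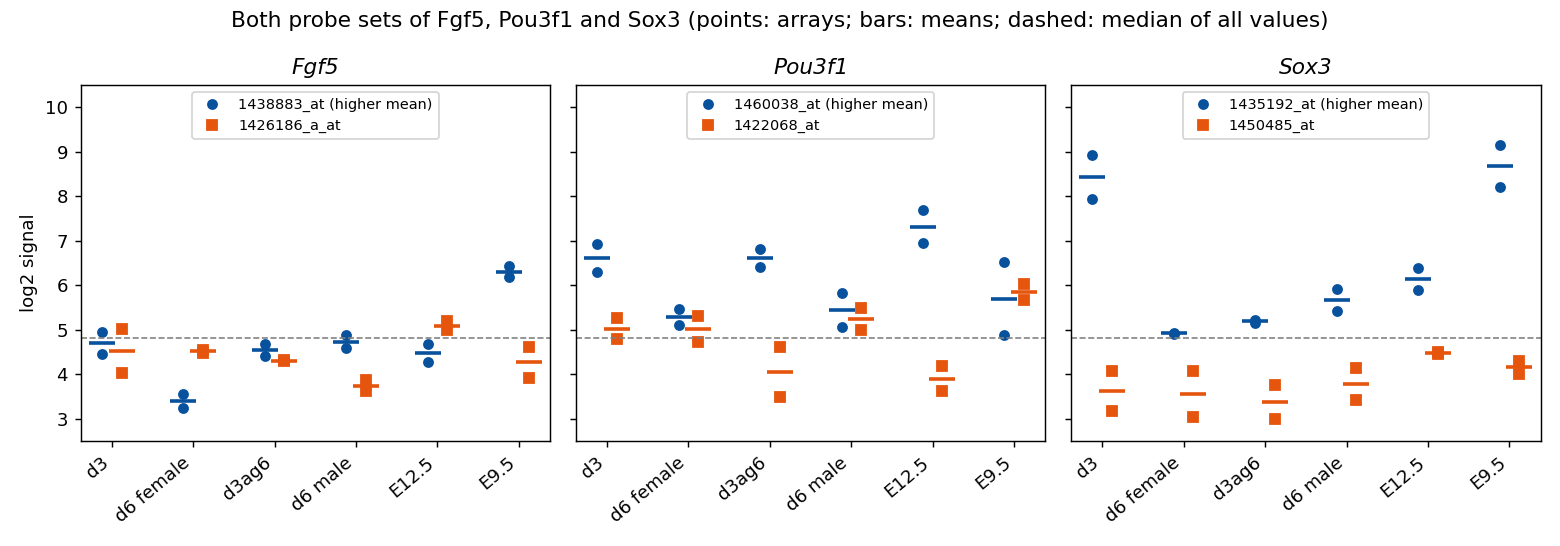
Log2 signal of the 2 probe sets of Fgf5, Pou3f1 and Sox3 on each array, with group means (bars) and the median of all values (dashed line). The blue Fgf5 and Sox3 probe sets peak in E9.5 while the orange ones do not, and the 2 Pou3f1 probe sets move in opposite directions between E12.5 and E9.5.

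Otx2, a homeodomain factor of the primed epiblast and forebrain, was dim. Its level was 4.95 and 4.15 in d3, 3.90 and 3.67 in d6 female, 3.39 and 5.02 in d3ag6, 4.16 and 4.26 in d6 male, 2.61 and 3.45 in E12.5, and 3.82 and 2.41 in E9.5. Its highest group mean was in d3 and its lowest in E12.5, but the spread between the arrays of d3ag6 alone was wider than the difference between these means. No comparison called it, and its adjusted p was 0.285 in d3ag6 minus E12.5, where the change was 1.18 (SE 0.60).

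Zic2, a zinc-finger factor that acts at enhancers during the exit from the naive state, read 0.09 to 3.12 over the 12 arrays, under the median mark throughout. Both extremes came from d6 male, and all neighbouring groups overlapped, so no order of groups can be read from it. Its chromosomal neighbour Zic5, which passed the filter, was 5.77 and 6.82 in d3, against 5.09 to 6.13 elsewhere, and no comparison called it. Zic1 was 8.46 and 5.81 in E9.5 and at most 4.60 on the other arrays.

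Cldn6, a claudin of embryonic epithelia, changed least among the members that varied. Its level was 8.39 and 8.40 in d3, 6.89 and 7.26 in d6 female, 7.74 and 7.93 in d3ag6, 7.07 and 7.35 in d6 male, 7.36 and 7.13 in E12.5, and 6.95 and 7.47 in E9.5. The d3 arrays were the highest, followed by d3ag6, and the other 4 groups overlapped. Cldn6 was 2.51-fold lower in d6 female than in d3 (log2 change -1.33, SE 0.22, adjusted p = 0.0133). Without d3 replicate 1 the adjusted p was 0.0737, and without d6 female replicate 1 it was 0.114. The change in d3ag6 was 0.77 against d6 female (SE 0.22, adjusted p = 0.0785) and -0.56 against d3 (SE 0.22, adjusted p = 0.156).

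Other claudins were read beside it. Cldn9, the neighbour of Cldn6 on chromosome 17, was 4.59 and 4.32 in d6 female, against 5.89 and 5.59 in d3 (change -1.29, SE 0.41, adjusted p = 0.145). Cldn4 fell in d3ag6 against d3 by 2.43 (SE 0.40, adjusted p = 0.0059) yet was 2.96 higher in d3ag6 than in E12.5 (SE 0.40, adjusted p = 0.00278). Cldn7 and Cldn3 were also higher in d3ag6 than in E12.5, by 1.67 (adjusted p = 0.000628) and 1.22 (adjusted p = 0.00685).

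The comparisons are now taken in turn over the members. The first asked what 3 further days of culture did to female PGCLCs. In d6 female minus d3, 4 of 6 tested members fell (Sox3, Sfrp2, Cldn6 and Fgf5) and none rose, where 2.34% of all genes tested fell and 1.72% rose. The calls of Fgf5 and Cldn6 were each lost without some single arrays, and both Fgf5 means lay under the median mark. On the second Fgf5 probe set d3 (5.03 and 4.04) and d6 female (4.56 and 4.48) overlapped. The median change of the 6 was -1.33, against -0.01 over all genes tested. The arrays of the groups did not overlap for any of the 6, a separation seen in 47.2% of all genes tested. In the other comparisons between groups it was seen for 3 to 5 of the 6, against 43.8% to 65% of all genes tested. Beside this, the summed signal of 7 endothelial markers was 1340 to 2120 in d6 female, against 1120 to 1180 in d3, with a median change of 1.61 and 1 called higher (Tek). Of 9 tested neural markers 1 was higher (Pax6), of 9 tested mesenchyme markers 1 was higher (Col3a1), of 10 tested gonadal somatic cell markers 1 was lower (Amhr2), and none of 7 tested blood and macrophage markers was called. Their part in the fall of the members was not tested. Of 24 tested genes of a list of other formative and primed epiblast genes, 1 fell, the growth factor gene Fgf8 (2.06 ± 1.64 in d6 female and 6.12 ± 0.20 in d3, change -4.06, SE 0.77, adjusted p = 0.0231), and 23 were not called, with a median of -0.24. Dnmt3b, a DNA methyltransferase of the primed state, read 7.36 and 6.67 in d6 female, against 7.87 and 8.24 in d3 (change -1.04, SE 0.48, adjusted p = 0.336).

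Of 13 tested relatives of the members, Zic4 rose by 1.10 (adjusted p = 0.0242) and Fgf4 fell by 1.61 (adjusted p = 0.0282). In the same comparison 4 of 13 tested genes of a WNT list fell and none rose: the ligands Wnt5a (change -5.30, SE 0.56, adjusted p = 0.00246) and Wnt5b (-1.83), the WNT-responsive factor Sp5 (-2.24) and the cyclin Ccnd1 (-1.70). None of 13 genes of FGF receptors and of the response to ERK signalling was called. Of 18 naive pluripotency genes, 3 fell (Tbx3, Fgf4 and Nr0b1) and none rose, with a median of 0.08, so falls were not limited to primed genes. Of 13 tested epithelial genes, the keratins Krt8 (-4.24) and Krt18 (-2.39) fell and 11 were not called.

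The next 2 comparisons asked how the aggregate with gonadal somatic cells differed from its starting cells and from plain culture. In d3ag6 minus d3, 1 of 6 members, Sox3, fell and none rose, where 4.84% of genes fell and 5.81% rose. The median change of the 6 was -0.25. In d3ag6 minus d6 female, 2 of 6 rose (Sfrp2 and Fgf5) and none fell, where 4.03% of genes rose and 2.36% fell, and the median was 0.95. The Fgf5 change was 1.13 (SE 0.24, adjusted p = 0.0273), between 2 means under the median mark, and it was lost without any 1 of the 4 arrays (adjusted p from 0.0651 to 0.185). The 2 comparisons share the d3ag6 arrays, and both d6 female comparisons share the d6 female arrays.

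Some markers of other cells moved with the aggregate. The summed signal of 9 blood and macrophage markers was 1340 to 1540 in d3ag6, against 540 to 566 in d6 female, and 2 of 7 tested rose (Lyz2 and Tyrobp). That of 16 gonadal somatic cell markers was 967 to 1090 in d3ag6, against 556 to 641 in d6 female, and 2 of 10 tested rose (Amhr2 and Fst), with 1 marker at 0 on both arrays of either group. That of 11 mesenchyme markers was 568 to 1100 in d3ag6, against 489 to 511 in d6 female, and none of 9 was called. For 11 neural markers it was 676 to 944 in d3ag6, against 454 to 618 in d6 female. Of 9 tested neural markers 1 rose (Pax6), and the median change of the 9 was -0.04. For 7 endothelial markers the sum was 1090 to 1190 in d3ag6, against 1340 to 2120 in d6 female, and none was called. For 8 gut and visceral endoderm markers it was 380 to 1700 in d3ag6, against 369 to 430 in d6 female, and none of 7 tested was called. Their part in the Sfrp2 and Fgf5 values was not tested. In d3ag6 minus d6 female, 1 of 24 other primed genes fell, the ETS factor Etv4 (5.71 in d3ag6 and 8.66 in d6 female, change -2.96, SE 0.18, adjusted p = 0.000161). Of 13 tested genes of FGF receptors and the ERK response, 3 fell: Etv4 and the FGF feedback inhibitors Spry4 (-1.43) and Spry2 (-1.62). In that list 1 gene rose and 9 were not called, with a median change of -0.23.

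Set beside female E12.5 PGCs, the d3ag6 cells were lower in 1 of 6 members (Sfrp2) and higher in none, where 3.07% of genes were lower and 5.95% higher. The median of the 6 was -0.33. Sox3 read 5.23 and 5.16 in d3ag6, against 6.39 and 5.89 in E12.5 (change -0.94, SE 0.38, adjusted p = 0.181). Of 24 other primed genes, 2 were higher in d3ag6, the Nodal pathway genes Lefty2 (10.06 and 10.18, against 4.95 and 5.40 in E12.5) and Tdgf1 (9.31 and 9.61, against 6.57 and 6.48 in E12.5), and Etv4 was lower (change -3.35, SE 0.18, adjusted p = 9.54e-05).

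The comparisons with E9.5 asked how culture PGCLCs stand to migrating PGCs of the embryo. In d6 female minus E9.5, 3 of 6 members were lower (Sfrp2, Fgf5 and Sox3) and none higher, where 5.6% of genes were lower and 8.33% higher. In d6 male minus E9.5, 3 of 6 were lower, again Sfrp2, Fgf5 and Sox3, and none higher, where 4.55% were lower and 6.04% higher. The 2 comparisons share the E9.5 arrays. The median changes of the 6 were -1.66 and -0.91. Within the code EA0831, d6 male minus E9.5 was -1.59 for Fgf5, -3.24 for Sox3 and -5.21 for Sfrp2. Within EA0842 it was -1.55, -2.80 and -4.42 for the same genes. With the code as a block, all 3 kept their call (adjusted p from 0.0185 to 0.0268). With only the arrays of these 2 groups in the fit, the Fgf5 call was lost (-1.57, adjusted p = 0.0521).

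In E12.5 minus E9.5, 2 of 6 members were lower (Fgf5 and Sox3) and none higher, where 10.7% of genes were lower and 12.9% higher, and the median of the 6 was -0.28. Beside these values, 8 of 9 tested mesenchyme markers and 5 of 9 tested neural markers were lower in E12.5 than in E9.5, and in d6 female 6 of 9 and 5 of 9 were lower than in E9.5. The summed mesenchyme signal was 293 to 334 in E12.5, 489 to 511 in d6 female and 534 to 691 in d6 male, against 1410 to 3280 in E9.5. E9.5 replicate 1, with the higher mesenchyme, blood and neural sums, read higher than replicate 2 for Sox3 and Sfrp2 but not for Fgf5. Without it, Sox3 was -3.29 and Sfrp2 -3.47 in d6 female minus E9.5, and Sox3 was -2.08 in E12.5 minus E9.5 (adjusted p = 0.0122). Endothelial markers went the other way in d6 male, with a summed signal of 2770 to 3120, against 1440 to 1820 in E9.5. Of 7 tested, 3 were higher in d6 male than in E9.5 and none was lower. The part of other cells in the E9.5 and d6 male levels of Fgf5, Sox3 and Sfrp2 was not tested.

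Other genes of the primed state split in these comparisons. Of 24 tested, 3 were higher and 6 lower in d6 female than in E9.5, and 3 were higher and 5 lower in E12.5 than in E9.5. Lefty2 (change 3.59) and Tdgf1 (4.31) were higher in d6 female, and the transcription factor Sall2 (-3.97) and the carbonic anhydrase Car14 (-1.78) were lower. By contrast 7 of 18 naive genes were higher in d6 female than in E9.5 and none was lower, among them Tfcp2l1 (change 1.45), Zfp42 (2.02) and Dppa4 (1.16).

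In d6 female minus d6 male, 1 of 6 members was lower, Fgf5 (3.25 and 3.56 in d6 female, against 4.60 and 4.88 in d6 male, change -1.33, SE 0.24, adjusted p = 0.0359), and none was higher, where 0.499% of genes were lower and 0.968% higher. The call was lost without any 1 of the 4 arrays (adjusted p from 0.0516 to 0.197), and the second probe set gave 0.76 (adjusted p = 0.253). Sfrp2 read 4.46 and 4.70 in d6 female, against 3.60 and 3.63 in d6 male (change 0.96, SE 0.23, adjusted p = 0.0791). None of the 24 other primed genes was called.

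**Figure D4:**
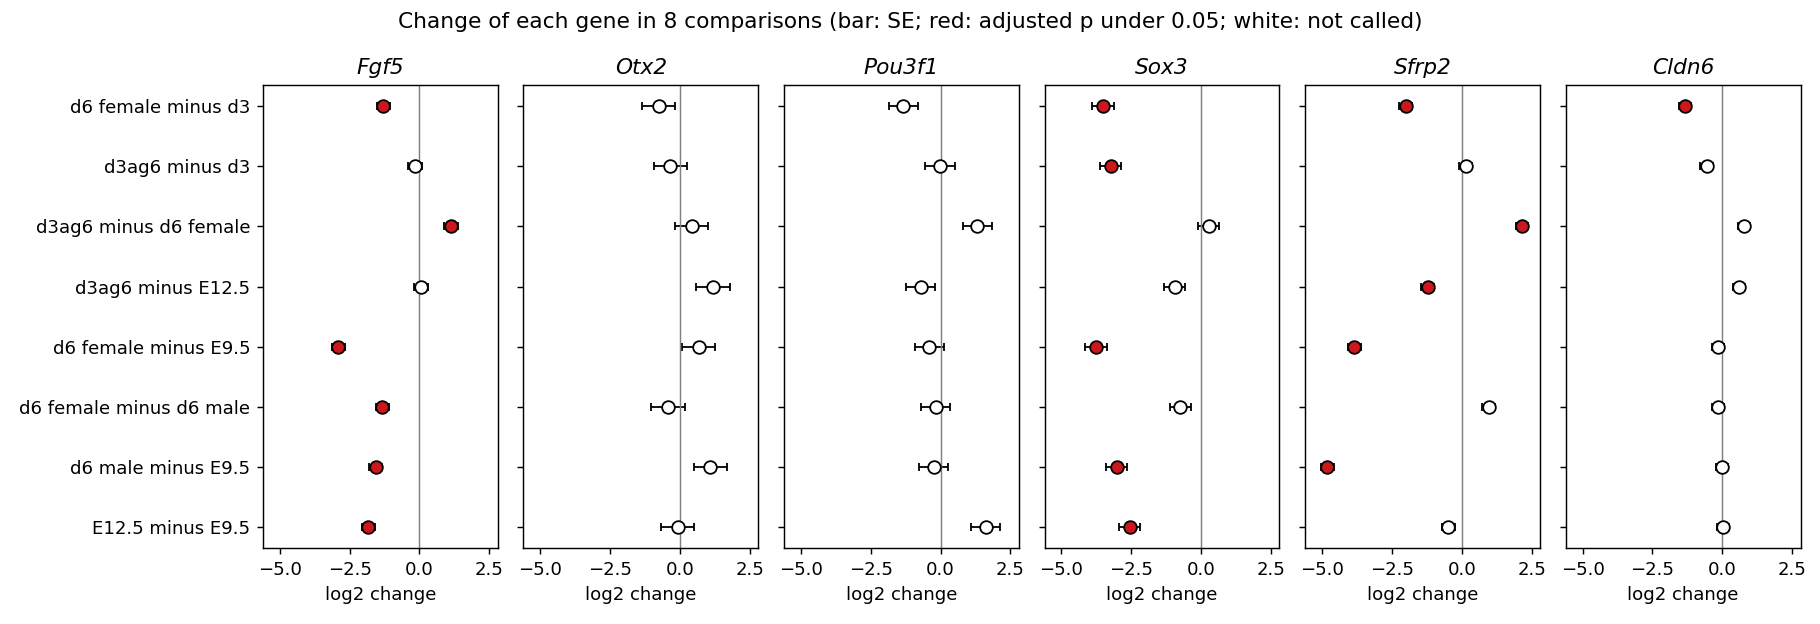
Log2 change of the 6 tested genes in the 8 comparisons (points, with SE bars, each the first-named group minus the second), red where the adjusted p was under 0.05. Fgf5 and Sox3 are red in each of the 3 comparisons with E9.5 and Sfrp2 in 2 of them, while no Otx2 or Pou3f1 point is red.

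The step of the aggregate was also set against the step of the embryo. The d3ag6 cells came from d3 PGCLCs, so d6 female is a parallel culture and not their start. The contrast was the change in d3ag6 minus d6 female less that in E12.5 minus E9.5. This difference was above 0 and called for 3 of 6 members, Fgf5 (2.96, SE 0.34, adjusted p = 0.00308), Sox3 (2.82, SE 0.54, adjusted p = 0.0196) and Sfrp2 (2.64, SE 0.32, adjusted p = 0.00345), and below 0 for none, where 3.28% of genes tested were called above 0 and 2.47% below. Some markers of other cells showed the same called difference above 0: 4 of 9 tested mesenchyme markers (median over the 9 of 3.66), 4 of 9 neural markers (median 2.87), 3 of 7 blood and macrophage markers (median 0.95), 2 of 10 gonadal somatic cell markers (median 0.94) and 2 of 7 endothelial markers (median -0.14), with none called below 0. None of 7 tested gut and visceral endoderm markers was called (median 0.03). The median of the 6 members was 1.69. The part of other cells in the members' difference was not tested. For Fgf5 and Sfrp2 the 2 steps had opposite signs, though the embryonic step of Sfrp2 (-0.48, adjusted p = 0.161) was not called. With values under the median mark raised to it, the difference was 1.5 for Fgf5 (with an aggregate step of 0) and 2.41 for Sfrp2, both called. For Sox3 the aggregate step was 0.27 and the embryonic step -2.55. Its d6 female level (4.92 and 4.93) lay close above the median mark, so a step further down could hardly be read. Against d3, the starting cells, d3ag6 changed by -3.23 for Sox3 (called), 0.15 for Sfrp2 and -0.16 for Fgf5 (not called). The Sox3 call was lost without any 1 array of d3ag6, d6 female or E12.5 (adjusted p from 0.0506 to 0.0823), and the Fgf5 difference was -1.03 on its second probe set (adjusted p = 0.237). The E9.5 arrays carry other codes than the rest, so the code and the embryonic step cannot be told apart. Of 24 other primed genes, 2 had a called difference above 0 (Sall2 and Car14) and 1 below it (Etv4).

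As a description over the 12 arrays, the members did not form 1 pattern. Pearson's r was 0.69 between Fgf5 and Sox3, 0.58 between Sox3 and Sfrp2 and 0.57 between Fgf5 and Sfrp2, with both E9.5 arrays high in all 3. It was -0.39 between Otx2 and Sfrp2 and 0.06 between Fgf5 and Cldn6. Among all genes tested, Sox3 was most alike to Hoxc8 (r = 0.968), Wnt5a (0.961) and Igsf9 (0.941). Hoxc8, a posterior homeobox gene, averaged 5.97 in d3 and 6.40 in E9.5 and at most 2.53 in the other groups. Wnt5a averaged 8.57 in d3 and 8.24 in E9.5 and at most 4.8 elsewhere. Sfrp2 was most alike to Ttc21b (0.970), Cacfd1 (0.958) and Igsf8 (0.953), Fgf5 to Tenm3 (0.943), Spsb4 (0.931) and Nnt (0.910), Pou3f1 to Memo1 (0.946), Pgd (0.938) and Tspan4 (0.930), Cldn6 to Ubr7 (0.938), Irf1 (0.930) and Ephx2 (0.919), and Otx2 to Arhgap8 (0.887), Herpud1 (0.880) and Zfp954 (0.876). These are the highest of many correlations and share the same 12 arrays.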

How the data were processed

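Mouse PGCLCs and PGCs were measured on 12 Affymetrix arrays, 2 in each of 6 groups. Per the labels' protocols, cells were sorted on reporter fluorescence and cDNA from 5 ng of RNA was amplified with 12 initial PCR cycles. The deposited table holds log2 values of 45101 probe sets on each array; the log base was read from the range of the values (array maxima 13.76 to 13.93), and the summarisation and normalization before deposit are not given in the sources used here. Of the probe sets, 34958 have 1 gene in the platform annotation, 932 several and 9211 none, and 34754 were matched to the RefSeq gene table (GRCm38.p6) by gene ID. Array medians as deposited ran from 4.73 to 4.87, and 2.07% to 2.3% of an array's values were 0.

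Values were quantile normalized and tested with limma 3.58.1 in R 4.3.3 on 6 group means over all 12 arrays (6 residual degrees of freedom), two-sided, with Benjamini-Hochberg adjustment over all 13436 genes with at least 2 arrays above the median of all values. Each gene used its probe set with the highest mean. The steps were tested on simulated data. Sequences and figures were made in Python 3.11.15 with numpy 2.4.6, pandas 2.3.3 and matplotlib 3.10.9. The members and all lists were chosen with earlier results of these data known. Besides the members, 13 lists were used: other primed, naive, relatives of the members, FGF, WNT, epithelial, germ cell, neural, gonadal somatic, mesenchyme, blood, endothelial and gut endoderm genes. From each list, called genes were named in order of adjusted p, at most 4 a comparison, with relatives named beside their member and the 3 most correlated genes of each member; Dnmt3b and the single arrays named were chosen after their values were seen. Alternatives were the unfiltered genes, a stricter filter (75th percentile), deposited values without quantile normalization, averaging a gene's probe sets, the other probe set, a replicate block, the array code as a block, eBayes with a trend, values under the median raised to it, fewer arrays, a 2-fold limit and leaving out each array.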

Additional observations from a re-analysis of the deposited data

Results flagged for a closer look

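For 3 genes the change in d3ag6 minus d6 female differed from that in E12.5 minus E9.5, by a limma test of the difference itself. The difference was 2.96 for Fgf5, 2.82 for Sox3 and 2.64 for Sfrp2 on the log2 scale. The d6 female cells are a parallel culture and not the starting cells of d3ag6. Against those, the d3 cells, d3ag6 changed by -3.23 for Sox3 (called), 0.15 for Sfrp2 and -0.16 for Fgf5 (not called). The d6 female level of Sox3 (4.92 and 4.93) lay close above the median of all values. With any 1 array of d3ag6, d6 female or E12.5 left out, the Sox3 call was lost (adjusted p from 0.0506 to 0.0823), while those of Fgf5 and Sfrp2 held in each case. With the other Fgf5 probe set the Fgf5 difference was -1.03 (adjusted p = 0.237). The same difference was called above 0 for 4 of 9 tested mesenchyme markers (median 3.66), 4 of 9 neural markers (median 2.87) and 3 of 7 blood and macrophage markers (median 0.95), and below 0 for none of them. It was called for none of 7 tested gut and visceral endoderm markers (median 0.03). The part of other cells in the difference of the 3 genes was not tested.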

How the results depend on the processing

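Sox3 and Sfrp2 kept their calls in d6 female minus d3, d6 female minus E9.5 and d6 male minus E9.5 under all other settings run with their own probe set, as did Sox3 in d3ag6 minus d3 and Sfrp2 in d3ag6 minus d6 female; the cause of the changes below was not tested. Correlations of same-numbered arrays' deviations ran from -0.25 to 0.55 and exceeded 0.1 in 8 of 15 pairs of groups, so the numbers were not taken to pair the samples. The highest, 0.55, was that of E9.5 with d6 male, where same-numbered arrays share an array code. That comparison was therefore also run with the code as a block. The replicate block changed 1 call of a single gene between groups, Pou3f1 in E12.5 minus E9.5 (1.62, adjusted p = 0.0434), and its F test (5.48, adjusted p = 0.0462).

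Counts of members called. With the other probe sets Sox3 was not tested, because its second probe set had no array above the median. With the stricter filter Fgf5, Otx2 and Pou3f1 were not tested. A lower count under these settings can therefore come from a member that was left out of the test. In d6 female minus d3 there were 4, and 3 with the stricter filter or the mean of all probe sets. There were 2 with the arrays of the groups compared alone or with the other probe sets, and 2 to 4 without 1 array. In d3ag6 minus d3 there was 1, and 0 with the other probe sets. In d3ag6 minus d6 female there were 2, and 1 with no filter, the stricter filter, the mean of all probe sets, the other probe sets, values under the median raised to it, the groups compared alone, or without any 1 array. In d3ag6 minus E12.5 there was 1, and 0 without any 1 array. In d6 female minus d6 male there was 1, and 0 under each of these settings, eBayes with a trend, and without any 1 array. In E12.5 minus E9.5 there were 2, and 1 with the stricter filter or the other probe sets and 0 with the mean of all probe sets, but 3 with the replicate block, with eBayes with a trend and without either E9.5 array. With the other probe sets 1 was called in d6 female minus E9.5 and 1 in d6 male minus E9.5, where 3 had been in each. With the stricter filter 2 were called in each, and with the groups compared alone 2 in d6 male minus E9.5. In the difference of steps 1 was called with the other probe sets or with the mean of all probe sets, where 3 had been.

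Counts of all genes called. With no filter there were 313 for 545 in d6 female minus d3, 419 for 859 in d3ag6 minus d6 female, 775 for 1213 in d3ag6 minus E12.5, 38 for 197 in d6 female minus d6 male and 459 for 773 in the difference of steps. With the mean of all probe sets, d6 female minus d3 gave 338 and d3ag6 minus E12.5 gave 796. With a 2-fold limit, d3ag6 minus d3 gave 905 for 1430, d3ag6 minus E12.5 gave 778, d6 female minus E9.5 gave 1142 for 1872 and E12.5 minus E9.5 gave 1850 for 3170. With the groups compared alone, d6 female minus d3 gave 148, d3ag6 minus d3 gave 765, d3ag6 minus d6 female gave 569, d6 female minus E9.5 gave 560, d6 female minus d6 male gave 2 and d6 male minus E9.5 gave 291 for 1424, or 887 with the array code as a block. Raising values to the median gave 318 in d6 female minus d6 male. Without 1 array the counts ran from 112 to 461 in d6 female minus d3, 588 to 955 in d3ag6 minus d3, 193 to 356 in d3ag6 minus d6 female, 363 to 573 in d3ag6 minus E12.5, 743 to 1353 in d6 female minus E9.5, 12 to 239 in d6 female minus d6 male, 849 to 1105 in d6 male minus E9.5, 1387 to 2541 in E12.5 minus E9.5, 268 to 789 in the difference of steps and 3112 to 5175 in the F test (4965 with all arrays).

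Values that changed sign. With the other probe set, Fgf5 was -0.21 in d3ag6 minus d6 female, -0.78 in d3ag6 minus E12.5, 0.25 in d6 female minus E9.5, 0.76 in d6 female minus d6 male, 0.82 in E12.5 minus E9.5 and -1.03 in the difference of steps. Pou3f1 was -0.97 in d3ag6 minus d6 female, 0.16 in d3ag6 minus E12.5, -1.95 in E12.5 minus E9.5 and 0.99 in the difference of steps. With the mean of all probe sets, Fgf5 was -0.36 in d3ag6 minus E12.5 and Pou3f1 -0.16 in E12.5 minus E9.5 and 0.34 in the difference of steps. As deposited, Pou3f1 was 0.07 in d3ag6 minus d3 and Cldn6 -0.09 in E12.5 minus E9.5. Raising values to the median gave 0.04 for Otx2 in d3ag6 minus d3. Without 1 array, these values, none of them called, crossed 0. Cldn6 ran from -0.23 to 0.29 in E12.5 minus E9.5, -0.40 to 0.12 in d6 female minus E9.5 and -0.33 to 0.05 in d6 female minus d6 male. Fgf5 ran from -0.15 to 0.27 in d3ag6 minus E12.5 and -0.41 to 0.09 in d3ag6 minus d3. Otx2 ran from -0.31 to 1.32 in the difference of steps, -0.79 to 0.62 in E12.5 minus E9.5, -1.16 to 0.48 in d3ag6 minus d3, -0.39 to 1.24 in d3ag6 minus d6 female and -0.04 to 1.38 in d6 female minus E9.5. Pou3f1 ran from -1.12 to 0.52 in the difference of steps, -0.33 to 0.30 in d3ag6 minus d3, -1.23 to 0.41 in d6 female minus E9.5, -0.56 to 0.22 in d6 female minus d6 male and -1.06 to 0.57 in d6 male minus E9.5.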
